A study of Mus musculus with 12 samples.

Results

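Some stretches of acetylated histone H4 were listed as peaks by more of the C2C12 myoblast libraries carrying MLX-WT than of those carrying MLX-DN. These MLX-WT favouring regions are described here. All H4ac peaks that overlapped or adjoined each other in any of 6 libraries were joined into 31891 regions (mouse build mm9). A region was kept if peaks of 2 or 3 MLX-WT libraries, and of 0 or 1 MLX-DN library, overlapped it by 1 bp or more. This left 920 regions, 2.88% of all. The opposite rule, 2 or 3 MLX-DN libraries and 0 or 1 MLX-WT library, is met by 8895 regions (27.9%), and 6631 regions are listed by at least 2 libraries of both groups and are called shared below. The 920 were chosen by whether a peak was listed, so their listing, fold and rank in these libraries are given as descriptions without a test.

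C2C12 is an established mouse myoblast line. Both groups had received a lentiviral construct, holding MLX-WT in one and MLX-DN in the other. DN is not spelled out in the labels, which in another field call those samples MLX down, and the tags inside the peak names read WITHGLUC in both groups. Each group had 3 libraries immunoprecipitated with a rabbit antibody to acetylated histone H4, and the labels also describe 3 input libraries per group. The labels name empty vector and non-targeting shRNA controls too, which were not analysed here, so no value says what the line does without either construct. The promoter that drives the constructs, and whether the replicates were separate cultures, are not stated in the labels. Spread between replicates may therefore be technical. Marker genes of myoblasts were not analysed here, since the gene tables used are of another build than the peaks. For the same reason the regions carry no gene names and no sequence, and whether they are promoters, introns or intergenic was not analysed here.

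MLX is a basic helix-loop-helix leucine zipper protein. It pairs with MondoA or ChREBP, and these pairs bind carbohydrate response elements, sites built from E-boxes, when glucose metabolites build up in the cell. Acetylated tails of histone H4 are found on the nucleosomes of active promoters and enhancers, where acetyltransferases are recruited by DNA-bound factors. In muscle cells, MLX and MondoA are known for control of glucose uptake and for genes such as Txnip.

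The libraries were sequenced to similar depth and differed in the number of peaks. The depth recovered from the lists was 3.30 to 3.90 ChIP reads per 250 bp window, and no listed peak had fewer than 13 ChIP reads at its summit. The lists held 5385 to 13652 peaks in MLX-WT and 15201 to 24811 in MLX-DN. Fold, in what follows, is the authors' value for a peak: ChIP reads over control background at the summit. In material from many cells, fewer acetylated cells and less acetylation per cell cannot be told apart. A region that is not listed has no value in that library, which means below the caller's threshold and not zero. Percentile means the rank of a peak's −log10 q among all peaks of its own list, from 0 for the weakest to 100 for the strongest.

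The regions rested largely on 2 of the MLX-WT libraries and were often also listed by the longest MLX-DN list. MLX-WT replicate 2 listed 856 of the 920 (93.0%) and replicate 3 listed 779 (84.7%), while replicate 1, with the shortest list, listed 355 (38.6%). In MLX-DN, replicate 2 listed 451 (49.0%), replicate 3 listed 89 (9.67%) and replicate 1 listed 63 (6.85%). The strictest pattern, all 3 MLX-WT libraries and no MLX-DN library, held 53 regions, which is 5.76% of the 920 and 0.166% of all regions. The mirror pattern, listed throughout MLX-DN and absent from every MLX-WT list, held 1945 regions (6.10%). Another 97 regions were listed by all 3 MLX-WT libraries and 1 MLX-DN library. The remaining 770 had 2 MLX-WT libraries, 264 of them without and 506 with an MLX-DN library. The most frequent combination was MLX-WT replicates 2 and 3 with MLX-DN replicate 2, at 279 regions (30.3%), followed by MLX-WT replicates 2 and 3 alone, at 199 (21.6%).

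**Figure D1:**
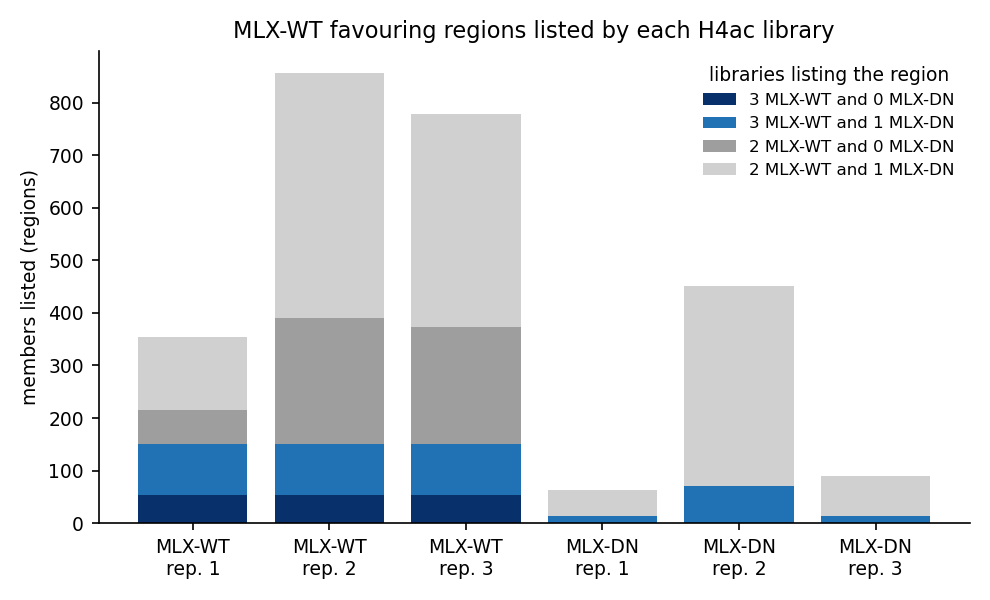
Number of MLX-WT favouring regions (y axis, regions) listed by each H4ac library (x axis), with colours for the number of libraries of each group that list the region. MLX-WT replicates 2 and 3 list 856 and 779 of the 920, and MLX-DN replicate 2 lists 451, most of them in the pattern of 2 MLX-WT and 1 MLX-DN.

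The single MLX-DN listing came mostly from replicate 2. Of the 603 regions with 1 MLX-DN library, replicate 2 was that library in 74.8%. Over all 13273 regions listed by exactly 1 MLX-DN library, which include these 603 and are not limited to regions with 2 or 3 MLX-WT libraries, it was 66.2%. The missing MLX-WT library, in the 770 regions with 2, was replicate 1 in 73.4%, and it was replicate 1 in 73.5% of all regions with exactly 2 MLX-WT libraries. All these listings went into the choice of the regions, so the shares are descriptions.

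The peaks at these regions had median ranks below the middle of every list, and those at MLX-DN favouring regions in all lists but that of MLX-DN replicate 2. Their median percentile was 32.9, 42.6 and 39.3 in MLX-WT replicates 1, 2 and 3, where shared regions stood at 56.4, 71.7 and 63.4. In the 3 MLX-DN lists the medians were 28.8, 44.8 and 34.6, where shared regions stood at 74.3, 82.5 and 75.4. MLX-DN favouring regions had medians of 28.4, 41.8 and 34.9 in the MLX-WT lists and 41.9, 52.7 and 44.0 in the MLX-DN lists. In the MLX-WT lists the ranks of both sets of partly listed regions were thus similar. Few were strong everywhere: in 15 of the 920 (1.63%) every listing MLX-WT peak was in the top 25% of its list, which held for 979 shared regions (14.8%), and in 143 (15.5%) every one was in the top 50%. Median fold was 3.63, 3.80 and 3.68 in MLX-WT replicates 1, 2 and 3, within a range of 1.97 to 8.56 over the 3 libraries. At the summit the median was 29, 30 and 26 ChIP reads, against 38, 39 and 32 at shared regions. The regions were also short, with a median width of 517 bp and 27 (2.93%) above 1 kb. Shared regions had a median of 832 bp with 35.9% above 1 kb, and MLX-DN favouring regions a median of 564 bp with 10.7%.

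**Figure D2:**
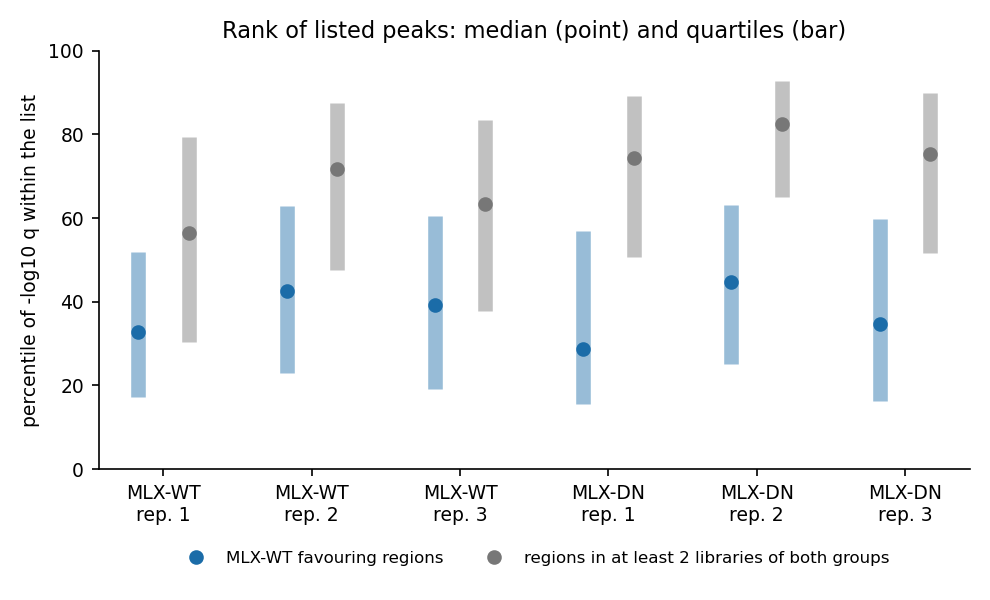
Percentile of −log10 q within each list (y axis) for listed peaks at MLX-WT favouring regions (blue) and at shared regions (grey), by library (x axis); points are medians and bars span the quartiles. In all 6 lists the median of the MLX-WT favouring regions lies between 28.8 and 44.8 and below that of shared regions.

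Regions were made by joining peaks that overlap or adjoin, so overlap within a region largely follows from the joining. In 910 of the 920 (98.9%) at least 2 MLX-WT peaks overlapped each other directly. The single MLX-DN peak overlapped an MLX-WT peak in all 603 regions that had one. Both counts describe the joining and do not show agreement between libraries. Summits of MLX-WT replicates 2 and 3 lay a median of 73 bp apart over the 715 regions listed by both. Between MLX-DN replicate 2 and MLX-WT replicates 1, 2 and 3 the medians were 72, 72.5 and 70 bp, and at shared regions MLX-WT replicates 2 and 3 were 68 bp apart. For MLX-DN replicates 1 and 3, which listed 63 and 89 of the regions, the medians ran from 56.5 to 106 bp. Distances between groups thus included those between MLX-WT replicates, which were 73 to 80 bp.

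Where MLX-DN replicate 2 listed a region, its peak was about as high as those of MLX-WT. Over the 420 regions listed by both MLX-DN replicate 2 and MLX-WT replicate 2, median fold was 3.66 and 3.74, and the MLX-WT fold was the higher in 53.1% of them. It was the higher in 49.3% of 381 regions for MLX-WT replicate 3 and in 48.8% of 172 regions for replicate 1. Against the other MLX-DN libraries the share was larger, from 54.4% to 63.0% over the 6 pairs of libraries. ChIP reads divided by library depth went the other way in 5 of these 6 pairs: MLX-WT was the higher in 26.8% to 46.3% of regions, and in 62.5% of the 24 regions of MLX-WT replicate 1 with MLX-DN replicate 1. In those 5 pairs the control background under the same peaks was lower in MLX-WT, with medians of 1.67 to 1.92 times the library's depth against 2.17 to 2.28 in MLX-DN. The part of control background in the difference of fold was not tested.

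Of the 53 regions listed by the 3 MLX-WT libraries alone, the highest in rank was chr15:11104017-11104805, 789 bp wide, where fold was 3.31, 3.44 and 4.93 in MLX-WT replicates 1, 2 and 3. It rested on 63, 69 and 67 ChIP reads, the most of any region named here, over a control of 18.3, 19.3 and 12.8 reads. The nearest MLX-DN peak was 109047 bp away. Control background at the peaks within 5 Mb that all 6 libraries listed was 0.773 times as high in MLX-DN as in MLX-WT, a value called the local control ratio below. Next came chr17:31684498-31685004, with folds of 5.43, 6.18 and 5.21 from 35, 37 and 25 reads, 5120 bp from an MLX-DN peak. Here the local control ratio was 1.02, so control background was about even between the groups. At chr10:98569792-98570282 the folds were 5.20, 4.86 and 4.32, but an MLX-DN peak lay 15 bp away and the local control ratio was 0.833. The region chr7:108092081-108093023 had folds of 5.11, 4.32 and 5.87 and a local control ratio of 0.986, with 11447 bp to the nearest MLX-DN peak. Of these 5, the replicates were least alike at chr10:70621918-70622711, at 3.92, 7.79 and 4.06. The local control ratio there was 0.783, and the nearest MLX-DN peak was 77531 bp away. Over all 53 the lowest percentile in any MLX-WT list ran from 0.117 to 80.3 with a median of 19.7, so in most of them at least 1 MLX-WT peak was among the weaker ones of its list. Of the 53, 10 (18.9%) were on chromosome 15, which held 5.84% of all regions. Some of these 10 were close neighbours, so they are not 10 separate places. In the other patterns the share on chromosome 15 was lower. It was 8.25% with 3 MLX-WT and 1 MLX-DN library, 9.85% with 2 and 0, and 6.52% with 2 and 1.

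In the 97 regions that added 1 MLX-DN library, the 5 strongest were all listed by MLX-DN replicate 2. At chr4:124792149-124792909 fold was 4.41, 5.68 and 5.50 in MLX-WT replicates 1, 2 and 3 and 5.21 in MLX-DN replicate 2, inside the MLX-WT range. The MLX-DN fold was below all 3 MLX-WT folds at chr8:123157637-123158527, with 3.41 against 3.80, 4.34 and 4.06, and at chr3:97030844-97031314, with 3.05 against 4.63, 5.30 and 5.11. In the latter MLX-DN replicate 2 had 42 ChIP reads over a control of 13.0, and the MLX-WT libraries had 28 to 33 reads over 4.68 to 5.82, so MLX-DN replicate 2 had the most reads and the lowest fold. Fold was 3.33 in MLX-DN replicate 2 and 2.91, 3.89 and 3.89 in MLX-WT at chr15:57907237-57907862. It was 3.52 against 3.70, 3.49 and 4.78 at chr18:63545777-63546890. In both of these the groups overlapped.

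Ranked by the lowest percentile over the MLX-WT lists that held it, the first of all 920 was a region with 2 MLX-WT libraries and no MLX-DN library. This was chr10:61802404-61802918, where fold was 5.19 in MLX-WT replicate 2 and 4.56 in replicate 3, at percentiles of 88.4 and 88.5, with replicate 1 not listing it. An MLX-DN peak lay 201 bp away. MLX-DN peaks were also near chr6:29298241-29298615, at 296 bp with MLX-WT folds of 6.63 and 4.46 in replicates 2 and 3, and near chr1:136391303-136391929, at 469 bp with folds of 5.43 and 4.64 in replicates 1 and 2. The other two stood farther off. The distance was 243843 bp at chr15:8757034-8757342, where replicates 1 and 2 had folds of 4.27 and 3.97 and the local control ratio was 0.747. It was 9396 bp at chr9:46091101-46091483, with folds of 4.99 and 5.27 in replicates 2 and 3.

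The largest class, 2 MLX-WT libraries and 1 MLX-DN library, was again led by regions that MLX-DN replicate 2 listed. At chr15:36119274-36119872 its fold of 6.47 was above the 5.74 and 5.03 of MLX-WT replicates 2 and 3. At the other 4 it was below: 3.73 against 4.84 and 4.69 at chr1:55144134-55144714, 3.48 against 6.36 and 4.73 at chr12:81744340-81744802, and 5.22 against 5.78 and 5.56 at chr16:4726378-4727103, all for replicates 2 and 3. At chr10:50312425-50312905 it was 3.79, against 5.91 and 4.94 in replicates 1 and 2. The MLX-DN peaks at these 4 regions were built on 39 to 56 ChIP reads and the MLX-WT peaks on 33 to 48. These reads were not divided by library depth. At chr10:50312425-50312905 MLX-DN replicate 2 had fewer reads, 39 against 48 and 40, and at the others it had more. The 3 widest regions belonged to patterns with 1 MLX-DN library too. They were chr2:92299420-92300964 with 1545 bp, chr15:27712872-27714333 with 1462 bp and chr8:73172573-73174029 with 1457 bp, with folds of 2.79 to 5.50 in all libraries that listed them.

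The rule's threshold parted regions with similar values. Just outside it, with 2 libraries of each group, chr10:79577640-79578156 had folds of 5.80 and 4.77 in MLX-WT replicates 2 and 3 and 2.98 and 4.83 in MLX-DN replicates 1 and 2. At chr7:134549775-134550283, of the same pattern, these were 5.74 and 8.10, and 3.63 and 6.14. Just outside on the other side, with 1 MLX-WT library and no MLX-DN library, MLX-WT replicate 2 had a fold of 6.92 at chr3:97413509-97414154 and 5.19 at chr17:66233574-66234129. There were 946 regions of the first kind and 2775 of the second, more than the 920 that met the rule.

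Regions without any MLX-DN listing lay beside an MLX-DN peak in some cases. Of these 317, 108 (34.1%; exact 95% binomial interval 28.9 to 39.6) had an MLX-DN peak within 1 kb and 156 (49.2%; 43.6 to 54.9) within 5 kb, with a median distance of 5120 bp. Intervals here and below cover counting error only and leave out the spread between libraries. In 29 of the 317 (9.15%) all 3 MLX-DN libraries had a peak within 1 kb. The mirror measure, from 5503 MLX-DN favouring regions without an MLX-WT listing to the nearest MLX-WT peak, gave 26.5% within 1 kb and 42.0% within 5 kb, with fewer MLX-WT peaks to be near to. Other regions without an MLX-DN listing were not measured, so these shares are not shown to be particular to the 317.

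Regions of 1 kind tended to lie side by side, MLX-WT favouring regions among them. For 85 of the 920 (9.24%) the nearest other region was itself one of the 920, while this was so for 3.02% of all regions and 1.85% of MLX-DN favouring regions. In 63 of these 85 the neighbour was within 1 kb. Likewise the nearest region was of the own kind for 36.4% of MLX-DN favouring regions, which were nearest to 29.8% of all regions, and for 29.0% of shared regions, which were nearest to 20.2% of all. Chaining those within 100 kb gave 600 single regions, 99 pairs, 24 groups of 3, 8 of 4 and 1 each of 5, 6 and 7. The group of 7 spanned 111218 bp at chr10:76085537-76196754. It held 17 regions in all, of which 1 favoured MLX-DN and none was shared. MLX-WT replicates 1, 2 and 3 listed 3, 13 and 6 peaks there and MLX-DN replicates 1, 2 and 3 listed 0, 8 and 3. The peaks were weak: folds at the 7 regions were 2.54 to 4.57 in MLX-WT and 2.77 to 3.90 in MLX-DN, and in 6 of the 7 an MLX-DN library listed the region.

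**Figure D3:**
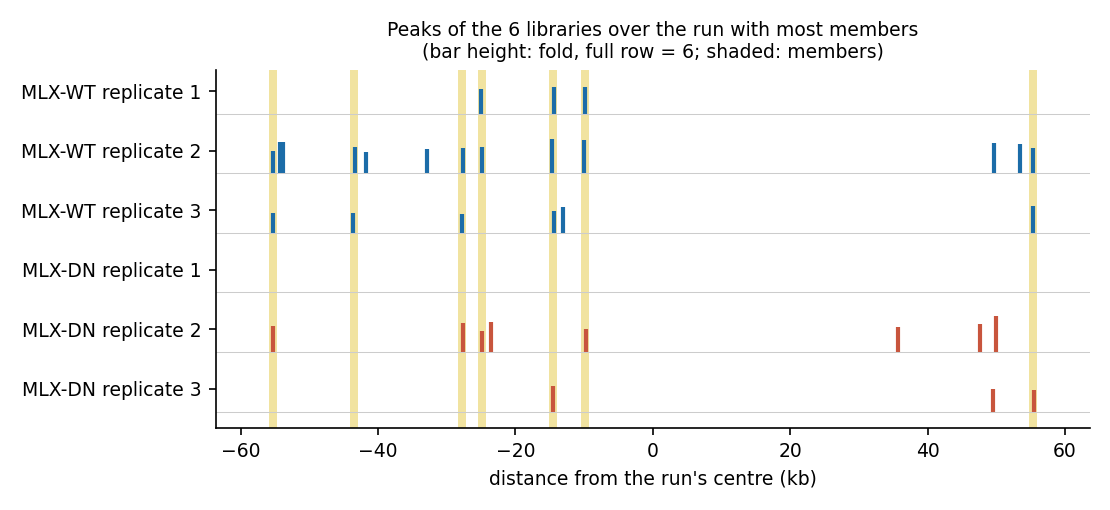
Peaks of the 6 libraries over the run with most MLX-WT favouring regions; the x axis is the distance from its centre in kb, each bar is a peak with its height set by the authors' fold (a full row is 6), and shaded bands mark the 7 regions. MLX-DN replicate 1 has no peak in the run, and MLX-DN replicate 2 has 8.

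The group of 5 was on the same chromosome, at chr10:76669733-76715566. Together with the gap between them, the groups of 7 and 5 spanned 630030 bp with 39 regions, 12 of which favoured MLX-WT (30.8%), 1 MLX-DN and 1 was shared; this stretch was chosen after its values were seen. The highest fold among the 5 was at chr10:76673199-76674092, with folds of 3.62, 6.54 and 4.18 in MLX-WT replicates 1, 2 and 3 and 3.12 in MLX-DN replicate 2. No MLX-DN library listed the last pair, chr10:76714090-76714655 with folds of 3.79, 4.81 and 3.30 and chr10:76714813-76715566 with 3.81, 4.32 and 5.40. The local control ratio of both groups was 0.948. The group of 6, at chr14:23641260-23766856, had a ratio of 0.968. It held 5 regions without an MLX-DN listing, among them chr14:23669029-23669523, with folds of 5.17, 4.01 and 5.47, and chr14:23709340-23709901, with 4.53, 6.32 and 4.90. It also held 4 MLX-DN favouring and 2 shared regions among 23.

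The regions were unevenly spread over the chromosomes, and the control background moved with this spread. Chromosome 15 held 77 of the 920 (8.37%; 6.66 to 10.3) but 5.84% of all regions, and chromosome 19 held 4.57% (3.31 to 6.12) against 3.27%. Chromosomes 1, 3, 4 and 5 held fewer than their part: 4.24%, 3.04%, 4.24% and 3.48% against 6.35%, 4.69%, 6.15% and 5.86%. Each of their intervals leaves out the latter value, without adjustment over the chromosomes. The intervals also treat regions as independent. Some regions lay in the groups described above, so the intervals may be too narrow. As a share of each chromosome's own regions, those favouring MLX-WT came to 4.14% on chromosome 15, 4.03% on 19 and 3.93% on 18, and to 1.71% on chromosome 5.

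Control background under the peaks listed by all 6 libraries, relative to the mean of each library, was 1.45 ± 0.0310 in MLX-WT and 1.14 ± 0.0239 in MLX-DN on chromosome 15 (SD, n = 3). On chromosome 5 it was 0.798 ± 0.0157 and 0.981 ± 0.00551. On 7 autosomes every MLX-DN library had the higher control, and 2.15% of their regions favoured MLX-WT. On the 7 where every MLX-WT library had the higher control this was 3.61%, and on the 5 where the groups overlapped (2, 7, 13, 16 and 17) 3.03%. Across the 19 autosomes the share of regions favouring MLX-WT and the MLX-DN over MLX-WT control ratio had a Pearson r of −0.783 and a Spearman rho of −0.795, and r was −0.861 without chromosomes 5 and 8. This is a description: the points share the same libraries and controls. Chromosome 8 stood apart, with the highest control ratio, 1.26, and 3.05% of its regions favouring MLX-WT. Close to the regions themselves, the median local control ratio was 0.956 for MLX-WT favouring regions, 0.978 for all regions and 0.990 for MLX-DN favouring regions. The part of control background in the choice of these regions was not tested beyond the values given here for the 5 autosomes.

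**Figure D4:**
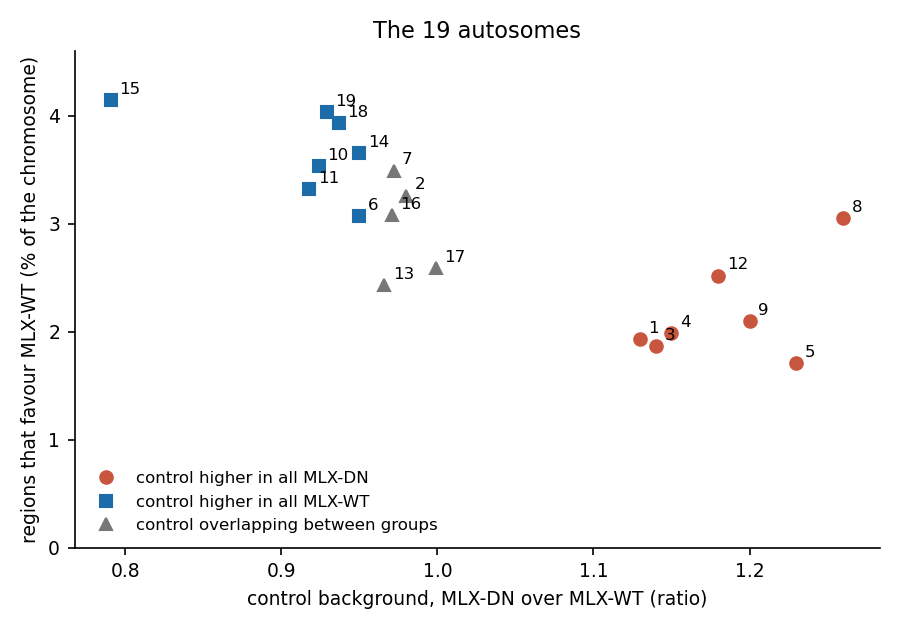
Share of each autosome's regions that favour MLX-WT (y axis, %) against the ratio of control background in MLX-DN over MLX-WT at peaks listed by all 6 libraries (x axis); numbers name the chromosomes, and colours show whether the control separated the groups. Chromosome 15 lies at the upper left (0.791 and 4.14%) and chromosome 5 at the lower right (1.23 and 1.71%).

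To see how a library lists regions that were chosen without it, each library was left out in turn. The regions were chosen from the other 5 lists, and the share that the left-out library listed was its value. For a left-out MLX-WT library, both other MLX-WT libraries and 0 or 1 MLX-DN library had to list a region. For a left-out MLX-DN library, it was 2 or 3 MLX-WT libraries and 0 or 1 of the other MLX-DN libraries. The rule was thus stricter for MLX-WT. Here and below, these shares and their permutation tests therefore do not compare the groups like for like. In the full lists the raw shares were not higher in MLX-WT. MLX-WT replicates 1, 2 and 3 listed 20.8%, 69.8% and 51.9% of regions chosen without them (713, 212 and 293 regions), and MLX-DN replicates 1, 2 and 3 listed 44.5%, 78.0% and 49.5% (1545, 2130 and 1644 regions). The groups overlapped, with means of 47.5% ± 24.8 and 57.3% ± 18.1 (SD, n = 3), and a two-sided exact permutation test gave p = 0.60. With 3 libraries against 3 this test cannot go below 0.10. The shares followed list length within each group, and the lists held from 5385 to 24811 peaks. As a reference for each library, the share it listed of all regions found by at least 2 of the other 5 libraries was 26.5%, 56.6% and 41.8% in MLX-WT replicates 1, 2 and 3 and 65.4%, 88.1% and 69.9% in MLX-DN replicates 1, 2 and 3. Divided by this reference, the shares were 0.784, 1.23 and 1.24 in MLX-WT and 0.681, 0.885 and 0.708 in MLX-DN. On this scale, chosen after seeing the data, the mean was higher in MLX-WT, at 1.09 ± 0.261 against 0.758 ± 0.111 (SD, n = 3; exact permutation p = 0.20), and the groups still overlapped. The sign of the full-list comparison therefore depended on whether the shares were divided by this reference. The reference does not measure list length alone, since it also counts MLX-DN favouring regions. Of those, MLX-WT replicates 1, 2 and 3 listed 2.48%, 26.4% and 9.22%, and MLX-DN replicates 1, 2 and 3 listed 70.1%, 93.3% and 78.5%. The rule that chose those regions makes these shares low in MLX-WT and high in MLX-DN. How far those regions move the reference of either group was not tested.

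Raw shares were higher in MLX-WT when no remaining MLX-DN library was allowed, and when lists had equal length. With no MLX-DN library allowed, MLX-WT replicates listed 20.7%, 69.2% and 57.3% and MLX-DN replicates 17.2%, 59.3% and 21.7% (means 49.1% and 32.8%, exact permutation p = 0.50), and the groups still overlapped. With each list cut to its 5385 strongest peaks the shares were 50.4%, 55.0% and 52.8% in MLX-WT and 41.5%, 44.6% and 39.7% in MLX-DN, so the groups no longer overlapped. The means were 52.7% ± 2.31 and 41.9% ± 2.50 (SD over 3 libraries), and the exact permutation p of 0.10 is the smallest this design allows. The ratios to the reference were 0.931 ± 0.0189 in MLX-WT and 0.708 ± 0.0221 in MLX-DN, so MLX-WT libraries too listed these regions slightly less often than their reference. On the 5 autosomes with overlapping control background the raw shares at equal list length were 54.6% ± 2.61 in MLX-WT and 39.5% ± 2.06 in MLX-DN (exact permutation p = 0.10). The 3 MLX-WT values are not independent. Each has nearly the same numerator, the regions listed by all 3 MLX-WT libraries and at most 1 MLX-DN library: 426, 426 and 426 regions at equal length, 124, 125 and 125 on the 5 autosomes, and 148, 148 and 152 in the full lists. Their small SD at equal length, the lack of overlap and the p-values above therefore do not show agreement between replicates. Equal lists also choose other regions. Of the 1574 regions that met the rule there, 260 (16.5%) overlapped one of the 920, which is 28.3% of the latter, and 1311 (83.3%) were listed by 2 or 3 MLX-DN libraries once the full lists were read.

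**Figure D5:**
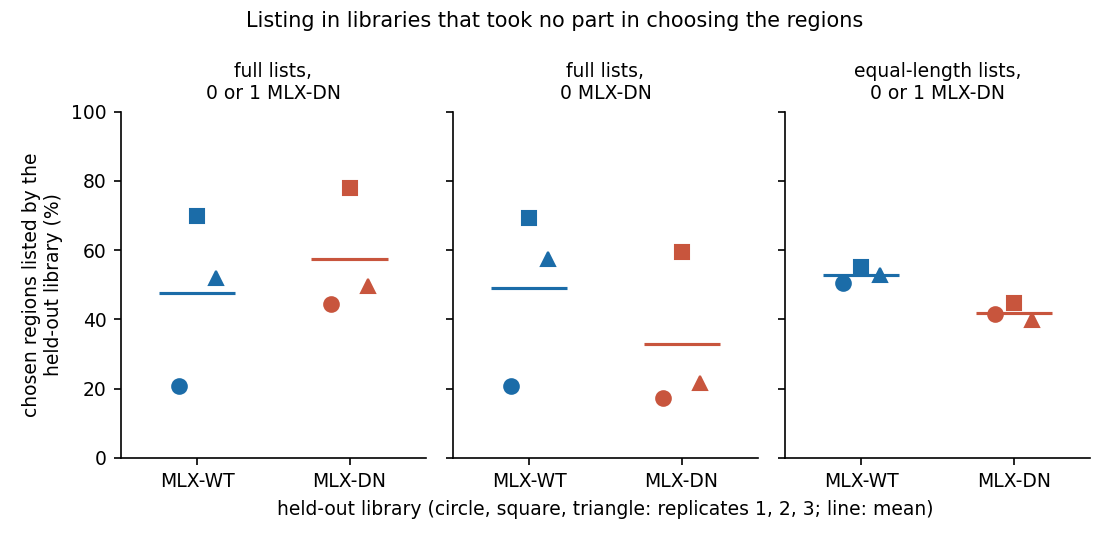
Share of regions, chosen from the other 5 lists, that the left-out library lists (y axis, %), by group (x axis); symbols are replicates 1 to 3 and lines are means of 3. The groups overlap in both panels of full lists and are apart at equal list length, where MLX-WT lies at 50.4% to 55.0% and MLX-DN at 39.7% to 44.6%.

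Leaving out 1 library of each group together lets both be read over the same regions. Regions listed by both remaining MLX-WT libraries and by neither remaining MLX-DN library were listed more often by the left-out MLX-WT library in 7 of 9 pairs of libraries. Both exceptions involved MLX-DN replicate 2: it listed 58.5% of 605 regions against 20.5% for MLX-WT replicate 1, and 60.7% of 244 against 52.9% for MLX-WT replicate 3. MLX-DN replicates 1 and 3 listed 16.1% to 26.2%. At equal list length the left-out MLX-WT library listed more in 9 of 9 pairs, 45.5% to 53.3% against 26.5% to 31.7%. The pairs share libraries, so they are given without a test. Regions chosen in the opposite way were listed more often by the left-out MLX-DN library in 9 of 9 pairs, 52.9% to 56.8% against 23.8% to 29.9% at equal length. At equal length both directions thus held in every pair, and the ranges of the groups lay farther apart in the MLX-DN direction.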

How the data were processed

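Acetylated histone H4 was profiled by ChIP-seq in 3 MLX-WT and 3 MLX-DN libraries, with groups and replicate numbers from the sample titles. Per the submitters' processing notes the build was mm9 and the tools included MACS2 2.0.9, BWA 0.5.9-r26, CASAVA, SAMtools, Picard 1.65 and R 2.14.0. Neither their roles and settings nor the control used for each list is given in the sources used here. The authors deposited 1 peak list per library, with a fold (a ratio) over background, −log10 p-value and q-value, and a score that repeats the q-value. Reads and control background were recovered from fold and p-value, with a pseudocount of 1, in all but 0 to 4 peaks per library; the steps were tested on simulated data. Percentiles, merging, distances and exact permutation tests used Python 3.11.15, numpy 2.4.6, pandas 2.3.3 and scipy 1.17.1. Shares have exact 95% binomial intervals.

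The regions and all rules were chosen with earlier results of these data known. Named are, for each of 4 listing patterns, the 5 regions with the highest lowest percentile over the MLX-WT lists, the 3 widest, the 3 runs with most members within 100 kb, and 2 regions of each pattern just outside the rule. Local control ratios are medians over at least 5 regions listed by all 6 libraries within 5 Mb.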

Additional observations from a re-analysis of the deposited data

How the results depend on the processing

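The number of MLX-WT favouring regions depended on the lists used. It was 708 at −log10 q of at least 5, 963 where peaks had to cover at least 50% of a region and 745 with regions within 500 bp joined, each within 1.5 times of 920. It became 1574 at equal list length, 317 with no MLX-DN library allowed and 255 on the 5 autosomes of overlapping control background (added after seeing the data). With 1 library left out it ranged from 212 to 2130: 212 without MLX-WT replicate 2, 293 without MLX-WT replicate 3, 713 without MLX-WT replicate 1, and 1545, 2130 and 1644 without MLX-DN replicates 1, 2 and 3. With a library missing the rule itself is stricter or looser. The left-out listing share, MLX-WT minus MLX-DN, was −9.84 percentage points and reversed to 10.8 at equal list length, to 15.1 at equal length on the 5 autosomes and to 16.3 with no MLX-DN library allowed. As a ratio to each library's reference share it reversed too, with a difference of ratios of 0.328. The other alternatives kept the negative sign, from −37.8 to −10.9. With 3 or fewer libraries per group no exact permutation p can fall under 0.10, so the p-values do not tell the alternatives apart. The cause of these reversals was not tested, and the MLX-WT values share their numerator. The share on chromosome 15 ran from 7.18% to 11.3%. Of the regions without an MLX-DN listing, 34.1% had an MLX-DN peak within 1 kb. This share was 14.7% at equal list length, 48.2% at 50% cover and 10.4% with regions joined. Joining takes in MLX-DN peaks up to 500 bp away. At 50% cover an MLX-DN peak that covers less counts as unlisted although it overlaps the region. Both settings thus move the share in part by construction.

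A replicate block, which sets libraries of 1 number against each other, left the difference at −9.84 points (exact sign-flip test, p = 0.50). The deviations of libraries with 1 number had correlations of −0.0593, −0.0596 and 0.000683, and no MLX-WT library correlated best with its own number. Every listed summit had at least 13 ChIP reads, and signal below that was not detectable here.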
